A study of Homo sapiens with 6 samples.

Results

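The activating transcription factor ATF4, the factors it works with and the stress effectors it drives were examined in H460 cells after knockdown of *HKlincR1*. The authors describe *HKlincR1* as a long intergenic noncoding RNA, while GENCODE v44 lists the gene as protein-coding. The set held 10 genes of the 57773 in the expression table: 3 ATF family factors (*ATF4*, *ATF3* and *ATF5*), *DDIT3*, which encodes CHOP, the C/EBP factors *CEBPB* and *CEBPG*, and the effectors *TRIB3*, *CHAC1*, *SESN2* and *DDIT4*. They were chosen by name, as known parts of one stress response, with earlier results of these data known. Each was matched to 1 Ensembl gene identifier. All 10 passed the filter on low values, which left 15451 genes for testing.

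H460 is an established non-small-cell lung cancer line from a large cell carcinoma. It was transfected for 48 hours with 50 nM of siRNA, either a non-targeting control (siNT, 3 biological replicates) or siHKlincR1_2 against *HKlincR1* (si*HKlincR1*, 3 biological replicates), so both groups carried a transfected siRNA and no untransfected cells were compared here. A single siRNA sequence stood for the knockdown. Poly(A) RNA was sequenced, and the abundance of each gene was given in RPKM. RPKM scales the reads of a gene by its length and by the reads of the library, without adjusting for differences in library composition. Levels can thus be compared between genes, and between libraries only with that limit.

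The knockdown was present in every si*HKlincR1* library. The mean of *HKlincR1* was 3.64 ± 0.178 RPKM in the siNT libraries against 0.527 ± 0.123 RPKM in the knockdown libraries (SD over 3 replicates), which is -2.59 on the log2 scale (limma, Benjamini-Hochberg adjusted p = 0.00245). The libraries held 24980280 to 30521000 reads, of which 89.9% to 91.1% fell on listed genes, and mitochondrial transcripts took 4.04% to 4.57% of reads with siNT and more in every knockdown library, 4.88% to 5.89%. The epithelial keratins *KRT8* (28.1 to 32.1 RPKM) and *KRT18* (78.9 to 88.5 RPKM) were abundant, while the epithelial marker *EPCAM* was near 0 (1 to 8 reads a library) and the leukocyte marker *PTPRC* had at most 0.0691 RPKM. *COL1A1*, a fibroblast collagen, was low and lower in every knockdown library (0.419 to 0.773 RPKM) than in every control library (0.998 to 1.23 RPKM), at -0.85 on the log2 scale (limma adjusted p = 0.196). The part of the mitochondrial share and of *COL1A1* in the differences given here was not tested. On the first principal component, with 41.6% of the variance, siNT replicate 3 (32.5) stood apart from siNT replicates 1 and 2 (6.81 and 8.72), and si*HKlincR1* replicate 3 (10.3) stood apart from si*HKlincR1* replicates 1 and 2 (-25.1 and -33.2). The log2 fold changes of the 10 genes are therefore also given below without these libraries.

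ATF4 is the central factor of the integrated stress response. Kinases that sense unfolded protein, amino acid shortage, haem shortage or double-stranded RNA phosphorylate the translation factor eIF2, which lowers protein synthesis in general while the *ATF4* mRNA is translated more, so that *ATF4* activity can change without a change in its mRNA. ATF4 pairs with C/EBP factors and binds composite elements near genes for amino acid synthesis and uptake, tRNA charging, redox control and cell death.

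The element that ATF4 and C/EBP proteins share was searched as TGATGNAA on both strands, in the 1000 bases before the annotated start of the canonical transcript (for *DDIT4* the principal one) on GRCh37. It was found before 5 of the 10 genes, against 9.35% of 10819 tested protein-coding genes and 13 of 39 other ATF4 target genes. The matches are shown as a description, and their part in the levels across the libraries was not tested. They are written 5′ to 3′ on the strand of the gene with the match in capitals. In the order below they lie at chr1:212781890-212781917, chr1:212782072-212782099, chr12:57914586-57914613, chr15:41245450-41245477, chr1:28585723-28585750 and chr10:74032726-74032753, on the plus strand except for *DDIT3*, on the minus strand.
ATF3, bases -203 to -196: ctccccgaacTTGCATCAccagtgcccc
ATF3, bases -21 to -14: ataaaaggggTGATGCAAcgctctccaa
DDIT3, bases -306 to -299: ttgccaaacaTTGCATCAtccccgcccc
CHAC1, bases -209 to -202: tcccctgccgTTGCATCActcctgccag
SESN2, bases -296 to -289: tgaagtccctTTTCATCAcgcaacccta
DDIT4, bases -942 to -935: tcctcggtccTGATGCAAccgtctggat
Positions are counted back from the start of the transcript. The first *ATF3* match and the *DDIT3* match fall within the gene's own span, because other transcripts start further upstream. The second *ATF3* match and the *CHAC1* match fall within an exon of another transcript, and those of *SESN2* and *DDIT4* lie before the gene.

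Other motifs were rarer in the same window. The cyclic AMP response element TGACGTCA was found before 4.43% of tested protein-coding genes, the ER stress element (CCAAT, 9 bases, CCACG) before 0.185% and the C/EBP palindrome TTGCGCAA before 0.582%, and each before 0 of the 10 genes. In the shorter RefSeq promoters of GRCh38.p14, 300 bases long, TGATGNAA was found in 3.62% of 34943 promoters and in those of *ATF3* and *CHAC1* among the 10. The windows that hold no match, those of *ATF4*, *ATF5*, *TRIB3*, *CEBPB* and *CEBPG* in the 1000 bases, say only that these letters are absent there.

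The levels of the 10 genes spanned a wide range in control cells. *DDIT4* was the most abundant, with a mean of 498.8 RPKM with siNT, followed by *ATF4* (179.8), *CEBPB* (67.7), *TRIB3* (45.1) and *DDIT3* (20.5), and each of the first 4 was above the next gene in every siNT library. *CHAC1*, *CEBPG*, *SESN2*, *ATF5* and *ATF3* followed at means of 18.5, 15.1, 13.1, 6.60 and 5.88 RPKM, and neighbours in that order, from *DDIT3* down, overlapped in their range over the siNT libraries. Only 0.337% of the tested genes had a higher siNT level than *DDIT4*, and 1.3% a higher one than *ATF4*.

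All 10 genes had a positive log2 fold change after *HKlincR1* knockdown, with a median of 0.61, against a median of 0.00112 and 7762 of 15451 positive among all tested genes. None was called, that is, past an adjusted p of 0.05 and a fold change of 1.5, when the libraries were compared without their replicate numbers (limma), a fit that called 0.00647% of tested genes higher. Unadjusted limma values were under 0.05 for 3 of the 10, *CEBPG* (0.0263), *SESN2* (0.0348) and *DDIT3* (0.0457), and for 1088 of 15451 tested genes in the same direction, and a voom fit on the underlying reads called 0 of the 10 as well. With the replicate number as a block, which compares same-numbered libraries, *DDIT3*, *TRIB3* and *CEBPG* passed (3 of 10), against 0.511% of tested genes called higher in that fit. No source used here says that same-numbered libraries were made side by side. All calls with the block thus rest on a pairing that was inferred from these same data. The values do not separate more RNA per cell from a larger share of cells that express a gene.

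**Figure D1:**
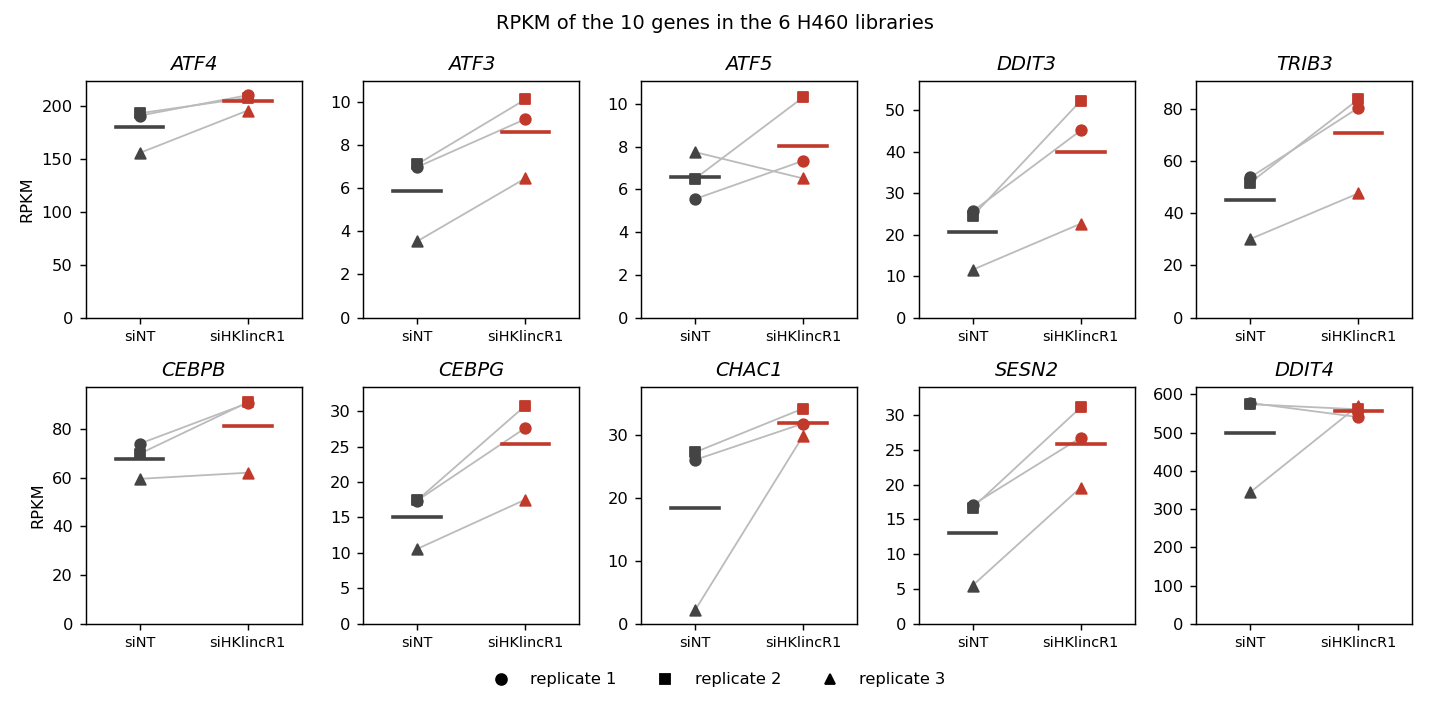
RPKM of each of the 10 genes (vertical axis from 0, own scale per panel) in the siNT libraries (grey) and the si*HKlincR1* libraries (red); the marker shape gives the replicate number, thin lines join same-numbered libraries and bars are group means. In 8 of the 10 panels all 3 lines rise, and the triangle, replicate 3, is the lowest siNT value in every panel except that of *ATF5*.

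The 3 ATF factors differed little or overlapped between the groups. *ATF4* itself had 190.8, 193.0 and 155.5 RPKM with siNT (replicates 1, 2 and 3) and 210.1, 207.7 and 195.6 RPKM with si*HKlincR1*. Every knockdown library was above every control library (p = 0.1 in an exact permutation test, two-sided, which cannot go lower with 3 against 3), but the difference was small, 1.14-fold between the means. Its log2 fold change was 0.19 (SE 0.096), with an adjusted p of 0.358 from limma with Benjamini-Hochberg adjustment, and 18.8% of tested genes had a larger one. Reads of *ATF4* and its processed pseudogenes can be hard to tell apart, and the most abundant of these, *ATF4P4*, had 5.38 to 7.95 RPKM.

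*ATF3*, a stress-induced factor that can repress or activate, had 6.99, 7.11 and 3.54 RPKM with siNT and 9.21, 10.1 and 6.46 RPKM with si*HKlincR1*. Each knockdown library was above the control library of the same number, by 1.32, 1.42 and 1.83 times, although the groups overlapped because si*HKlincR1* replicate 3 lay below siNT replicates 1 and 2 (exact two-sided permutation test, p = 0.3). The log2 fold change of 0.58 (SE 0.290) had a limma adjusted p of 0.356, and of 0.0554 with the block, and was 0.26 without siNT replicate 3. *ATF5*, which like *ATF4* is controlled at translation and acts in the mitochondrial stress response, had 5.55, 6.50 and 7.75 RPKM with siNT and 7.34, 10.3 and 6.52 RPKM with si*HKlincR1*. It was the only one of the 10 with its highest siNT value in replicate 3, and the third pair ran the other way, at 0.841 times the control. Its log2 fold change was 0.27 (SE 0.190, limma adjusted p = 0.494), and 0.079 without si*HKlincR1* replicate 2. Exons of *ATF5* overlap those of *NUP62* on the opposite strand (8.25 to 12.9 RPKM), and whether reads were counted by strand is not given in the sources used here.

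The CHOP gene *DDIT3*, a C/EBP family factor that promotes cell death under lasting stress, was higher by a like factor in all 3 pairs. It had 25.6, 24.5 and 11.5 RPKM with siNT and 45.1, 52.3 and 22.6 RPKM with si*HKlincR1*, and the ratio within same-numbered pairs was 1.76, 2.14 and 1.96. The third library of each group was low by a like amount, so that si*HKlincR1* replicate 3 fell below siNT replicates 1 and 2 and the groups overlapped (exact two-sided permutation test, p = 0.3). Without the block its log2 fold change was 0.96 (SE 0.397, limma adjusted p = 0.303). With the replicate block the standard error was 0.0678 and the limma adjusted p 0.0138. *MARS1*, the methionyl-tRNA synthetase gene on the opposite strand, shares up to 287 bases of exon with *DDIT3* and had 50.3, 50.8 and 36.2 RPKM with siNT and 76.9, 82.6 and 47.0 RPKM with si*HKlincR1*. Its part in the *DDIT3* reads was not tested.

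The C/EBP partners differed from each other in size. *CEBPG*, which pairs with ATF4 on amino acid response genes, had 17.4, 17.4 and 10.6 RPKM with siNT and 27.6, 30.8 and 17.5 RPKM with si*HKlincR1*. All knockdown libraries were above all control libraries, though si*HKlincR1* replicate 3 (17.52 RPKM) exceeded siNT replicate 2 (17.43 RPKM) by little, and the ratios within pairs were 1.59, 1.77 and 1.66. The log2 fold change was 0.74 (SE 0.264) with a limma adjusted p of 0.266, and 0.0138 with the block (SE 0.0552). *CEBPB*, a C/EBP factor of inflammation and differentiation, had 73.9, 69.8 and 59.5 RPKM with siNT and 90.6, 90.9 and 62.0 RPKM with si*HKlincR1*, with overlapping groups. The first 2 pairs differed by 1.23 and 1.30 times and the third by 1.04 times, and the log2 fold change was 0.25 (SE 0.163, limma adjusted p = 0.471, and 0.123 with the block).

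*TRIB3*, a pseudokinase that ATF4 and CHOP induce and that restrains both, followed *DDIT3* closely. It had 53.7, 51.7 and 30.1 RPKM with siNT and 80.4, 83.6 and 47.6 RPKM with si*HKlincR1*. The log2 differences within pairs, 0.58, 0.69 and 0.66, were close to each other, while the groups overlapped through the low libraries of replicate 3 (exact two-sided permutation test, p = 0.3). For *TRIB3* the log2 fold change was 0.64 (SE 0.286), with a limma adjusted p of 0.320, and of 0.0138 with the block (SE 0.0478).

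*CHAC1*, which degrades glutathione, showed the largest log2 fold change of the set, 1.46 (SE 0.901), and 1 library decided it. The siNT libraries had 26.1, 27.3 and 2.11 RPKM and the si*HKlincR1* libraries 31.9, 34.3 and 29.9 RPKM, so that the control value of replicate 3 rested on 108 reads where replicates 1 and 2 had 1484 and 1708. All knockdown libraries were above all control libraries (exact two-sided permutation test, p = 0.1). The first 2 pairs differed by 1.22 and 1.26 times and the third by 14.2 times. The limma adjusted p was 0.439, and 0.266 with the block. Among the 7762 tested genes whose mean reached 5 RPKM, *CHAC1* had the largest log2 drop from siNT replicates 1 and 2 to siNT replicate 3.

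*SESN2*, a sestrin that senses leucine and restrains mTORC1, had 17.1, 16.7 and 5.48 RPKM with siNT and 26.7, 31.1 and 19.6 RPKM with si*HKlincR1*. The groups did not overlap (exact two-sided permutation test, p = 0.1), and the ratios within pairs were 1.57, 1.86 and 3.57, the last against the low siNT replicate 3. The log2 fold change was 1.12 (SE 0.430, limma adjusted p = 0.286, and 0.0676 with the block). *DDIT4*, whose product REDD1 also restrains mTORC1, had 577.8, 574.5 and 344.0 RPKM with siNT and 540.7, 561.0 and 570.8 RPKM with si*HKlincR1*. In the first 2 pairs the knockdown was slightly lower, at 0.936 and 0.977 times the control, and in the third it was 1.66 times the control, so the log2 fold change of 0.20 (SE 0.195, limma adjusted p = 0.621) came from siNT replicate 3. Without that library it was -0.048.

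**Figure D2:**
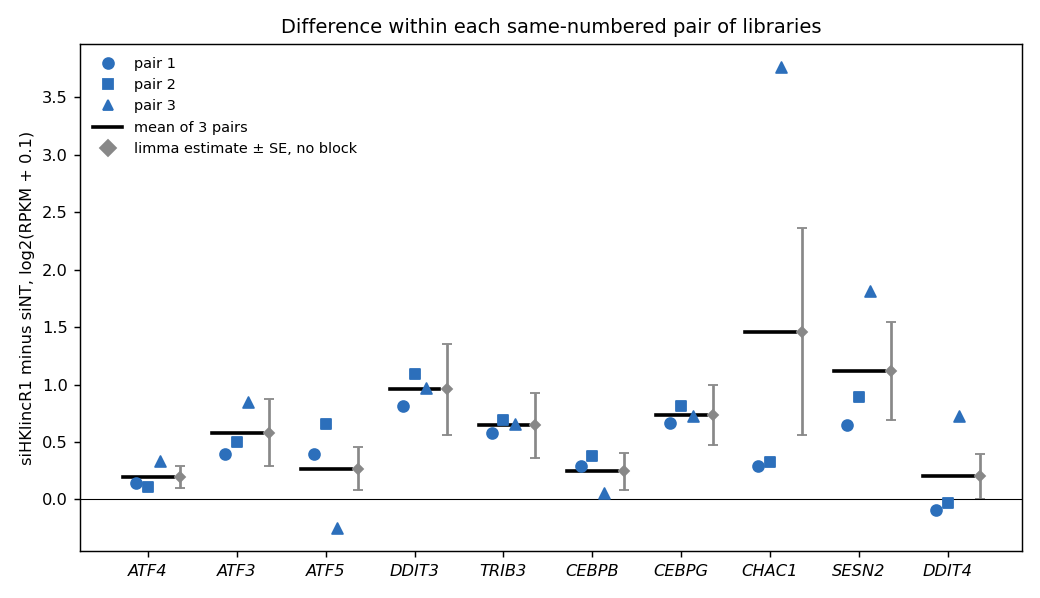
Difference of log2(RPKM + 0.1), si*HKlincR1* minus siNT, within each same-numbered pair (blue markers) for the 10 genes, with the mean of the 3 pairs (black bar) and the limma estimate without a block ± its standard error (grey). The pairs lie close together for *DDIT3*, *TRIB3* and *CEBPG*, and the third pair lies far above the others for *CHAC1*, at 3.76 against 0.29 and 0.33.

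Across the set, 8 of the 10 genes were higher in the knockdown in every pair (3702 of 15451 among all tested genes), the exceptions being *ATF5* and *DDIT4*. The groups did not overlap for 4 of the 10, *ATF4*, *CEBPG*, *CHAC1* and *SESN2*, against 10.1% of all tested genes. Another fit left out replicate 3 of both groups, a choice made after the data were seen. Most of the 10 genes were lowest in these libraries, so leaving them out narrowed the spread within the groups. For *DDIT3* the standard error was 0.0865, against 0.397 with all libraries and no block. In this fit 4 of the 10 were called higher, *DDIT3*, *TRIB3*, *CEBPG* and *SESN2*, against 1.17% of tested genes. Their log2 fold changes were 0.95, 0.64, 0.74 and 0.77, with limma adjusted p of 0.0204, 0.0196, 0.0225 and 0.0264. These calls describe the remaining libraries and are no separate test of the set. Without replicate 3 of both groups the log2 fold change of *CHAC1* was 0.31 and that of *DDIT4* -0.065. *ATF4* was at 0.12 (limma adjusted p = 0.21) and *ATF5* at 0.53 (limma adjusted p = 0.139). *ATF3* at 0.45 and *CEBPB* at 0.34 had limma adjusted p of 0.0408 and 0.0410, and were not called because their changes stayed under 1.5-fold. The values of *DDIT3*, *TRIB3* and *CEBPG* were thus nearly the same with and without this pair. Those of *CHAC1*, *SESN2*, *DDIT4*, *ATF4* and *ATF3* were smaller without it, and those of *ATF5* and *CEBPB* were larger. Leaving out siNT replicate 3 alone lowered *DDIT3* to 0.59, *TRIB3* to 0.38, *CEBPG* to 0.50, *SESN2* to 0.58, *CHAC1* to 0.26 and *ATF4* to 0.091, and none of the 10 was then called.

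The third libraries moved most of these genes in both groups. In siNT replicate 3, 9 of the 10 were below both other siNT libraries, where 41.0% of all tested genes were, and the median difference from replicates 1 and 2 was -0.77 on the log2 scale, against -0.0065 over all tested genes. In si*HKlincR1* replicate 3, 9 of the 10 were also below both other libraries of that group, where 6289 of 15451 tested genes were. The median difference was -0.55, against -0.0019 over all tested genes. For *DDIT3* (-1.11 in siNT and -1.10 in si*HKlincR1*), *TRIB3* (-0.81 and -0.78) and *CEBPG* (-0.71 and -0.73) the drop was alike in both groups. For *CHAC1* it was -3.60 in siNT and -0.14 in si*HKlincR1*, and for *SESN2* -1.60 and -0.56. *DDIT4* dropped by 0.74 on the log2 scale in siNT and changed by 0.05 in si*HKlincR1*. Whether the drops differed between the groups cannot be tested with 1 such library in each.

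**Figure D3:**
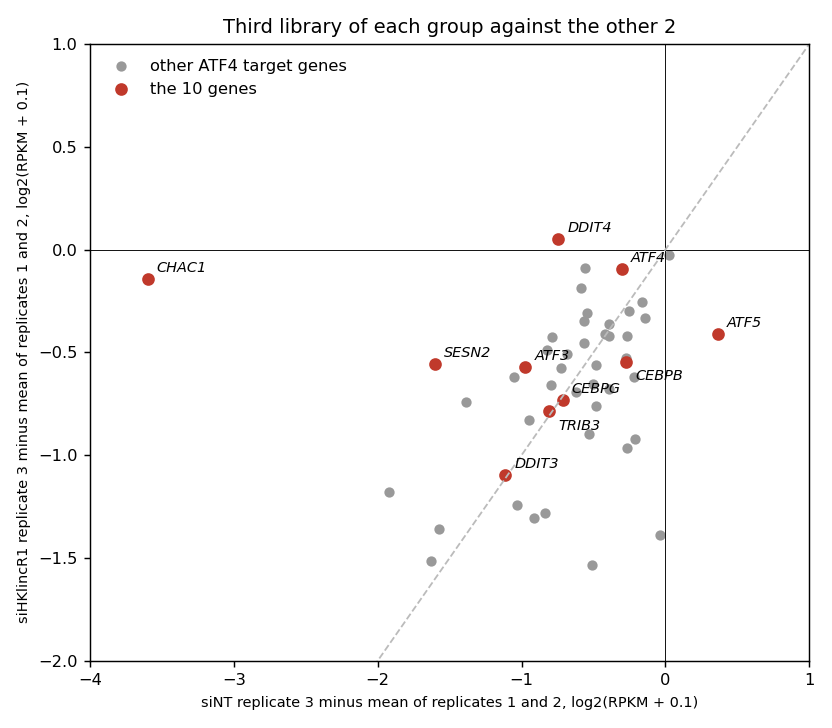
For the 10 genes (red, labelled) and the other tested ATF4 target genes (grey), the difference of log2(RPKM + 0.1) between replicate 3 and the mean of replicates 1 and 2, in siNT (horizontal) and in si*HKlincR1* (vertical); the dashed line marks equal values. *DDIT3*, *TRIB3* and *CEBPG* lie near the line, and *CHAC1* lies far to its left, at -3.60 against -0.14.

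The genes around ATF4 were described with fixed lists, read by counts and medians beside the values over all tested genes. Of 40 other ATF4 target genes, 39 were tested and 37 had a positive log2 fold change, with a median of 0.57. None was called without the block (22 had an unadjusted limma p under 0.05, all higher, and voom on reads called 0), while 13 were called higher and 0 lower with the block. Like the 10 genes, these targets were low in the third libraries: 37 of 39 were below both other siNT libraries in siNT replicate 3.

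*ASNS*, the asparagine synthetase gene, led this list. It had 43.5, 43.4 and 14.5 RPKM with siNT and 96.1, 108.7 and 39.7 RPKM with si*HKlincR1*, and the ratio within pairs ran from 2.21 to 2.73. Its log2 fold change was 1.30 (SE 0.523, limma adjusted p = 0.299, and 0.0124 with the block). *CBS*, which makes cystathionine for cysteine synthesis, had a log2 fold change of 1.14 (SE 0.411, limma adjusted p = 0.268, and 0.0138 with the block), and *ADM2*, which encodes a secreted peptide of the adrenomedullin family, one of 1.12 (SE 0.570, limma adjusted p = 0.361, and 0.0447 with the block). *RAB39B*, a small GTPase gene, was at low levels, 0.423 to 0.514 RPKM with siNT and 0.763 to 1.88 RPKM with si*HKlincR1*, and did not pass with the block (log2 fold change 1.20, limma adjusted p = 0.069). The other targets called with the block were the serine synthesis genes *PSAT1* and *PHGDH*, the mitochondrial folate enzyme gene *ALDH1L2*, *CTH* of cysteine synthesis, the amino acid transporters *SLC1A4* and *SLC6A9*, the aminoacyl-tRNA synthetase genes *GARS*, *SARS* and *CARS*, and *EIF4EBP1*, a repressor of translation.

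Most genes for eIF2, its kinases and its control did not share this direction. Of these genes, *PPP1R15A* is also in the list of other ATF4 targets and *DNAJC3* in that of ATF6 and XBP1 targets. Of the 18 genes for eIF2 kinases, eIF2, its exchange factor and its control, 6 had a positive and 12 a negative log2 fold change, with a median of -0.06 (unadjusted limma p under 0.05 for 2 in each direction), and 0 were called in either fit or by voom. *EIF2AK1*, the haem-regulated kinase, had 34.2, 35.7 and 35.7 RPKM with siNT and 28.3, 27.1 and 29.2 RPKM with si*HKlincR1*, a log2 fold change of -0.32 that stayed under the 1.5-fold threshold (limma adjusted p = 0.101, and 0.0493 with the block). *DNAJC3*, which encodes a chaperone that restrains eIF2 kinases, was also at -0.32 (limma adjusted p = 0.182). *PPP1R15A*, the gene for GADD34, which directs the phosphatase to eIF2 and is itself an ATF4 target, had 14.4, 14.1 and 9.94 RPKM with siNT and 25.1, 43.2 and 11.3 RPKM with si*HKlincR1*. Its log2 fold change was 0.86 (SE 0.442, limma adjusted p = 0.364, and 0.126 with the block), but 0.41 without si*HKlincR1* replicate 2 and 1.38 without si*HKlincR1* replicate 3, where it was called (limma adjusted p = 0.0355). *IMPACT*, an inhibitor of the kinase GCN2, was at 0.34 (limma adjusted p = 0.424).

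Targets of the other branches of the unfolded protein response, driven by ATF6 and by XBP1, lay mostly on the other side. Of 20 target genes for chaperones and secretory proteins, 18 had a negative log2 fold change, with a median of -0.21, and 8 were below all control libraries in all knockdown libraries, as were 1845 of the 15451 tested genes. None was called without the block (9 had an unadjusted limma p under 0.05, all lower, and voom on reads called 0). With the block 1 was called lower, *SDF2L1*, an ER chaperone component, which had 32.1, 28.4 and 39.8 RPKM with siNT and 18.9, 16.6 and 27.9 RPKM with si*HKlincR1* (log2 fold change -0.68, SE 0.206, limma adjusted p = 0.224, and 0.0265 with the block). *DNAJB9*, *MANF* and *CRELD2*, genes of ER chaperones or of secreted ER stress proteins, had log2 fold changes of -0.63, -0.58 and -0.52, and were not called with the block, *CRELD2* because its change stayed under 1.5-fold (limma adjusted p = 0.0436). Without si*HKlincR1* replicate 3, *MANF* (-0.84, limma adjusted p = 0.0282) and *CRELD2* (-0.63, limma adjusted p = 0.0293) were called lower.

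Other bZIP factors and the partners of the effectors moved less. Of 43 other bZIP genes, 31 were tested, with a median log2 fold change of 0.098 and 0 called in either fit or by voom (3 higher and 2 lower at an unadjusted limma p under 0.05). The largest differences were those of the AP-1 genes *FOSL1* (0.58), *JDP2* (0.57, but 0.050 without siNT replicate 3) and *FOS* (-0.42) and of *NFE2L1* (0.40), a regulator of proteasome genes. Leaving out si*HKlincR1* replicate 3 brought *FOSL1* past the threshold, at 0.81 (limma adjusted p = 0.0193). Of 14 genes for mTORC1, TSC and GATOR2, on which sestrins and REDD1 act, 9 were positive, with a median of 0.046 and a range between *AKT1S1* (-0.19) and *MIOS* (0.29), and 0 were called in either fit or by voom (1 higher at an unadjusted limma p under 0.05). *DEPTOR* was at 0.26 and *MLST8* at -0.14.

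The close paralogs of the effectors were measured as well, since they share sequence and function with them. *TRIB2* was at -0.39 on the log2 scale (SE 0.132, limma adjusted p = 0.250, and 0.103 with the block), with all knockdown libraries below all control libraries, and *TRIB1* at 0.28 (limma adjusted p = 0.487). *SESN1* (0.086), *CHAC2* (0.070), *DDIT4L* (-0.056) and *SESN3* (-0.011) were near 0, and the last 3 changed sign under some of the alternatives. None of the 6 was called in either fit or by voom, and 1, *TRIB2*, had an unadjusted limma p under 0.05.

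Several ATF4 effectors are also reached by p53, so its targets were set beside them. Of 21 tested p53 target genes, 13 had a positive log2 fold change and the median was 0.019. None was called without the block or by voom (3 higher and 3 lower at an unadjusted limma p under 0.05), and *GADD45A* and *BBC3* were called higher with it. *GADD45A*, a growth arrest gene that ATF4 also induces, had 20.9, 19.6 and 12.4 RPKM with siNT and 40.2, 42.9 and 21.2 RPKM with si*HKlincR1* (log2 fold change 0.95, SE 0.304, limma adjusted p = 0.237, and 0.017 with the block). *BBC3*, which encodes the cell death protein PUMA, was at 0.67 (limma adjusted p = 0.257, and 0.0444 with the block), *TP53INP1* at -0.40 and *PLK3* at 0.30.

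**Figure D4:**
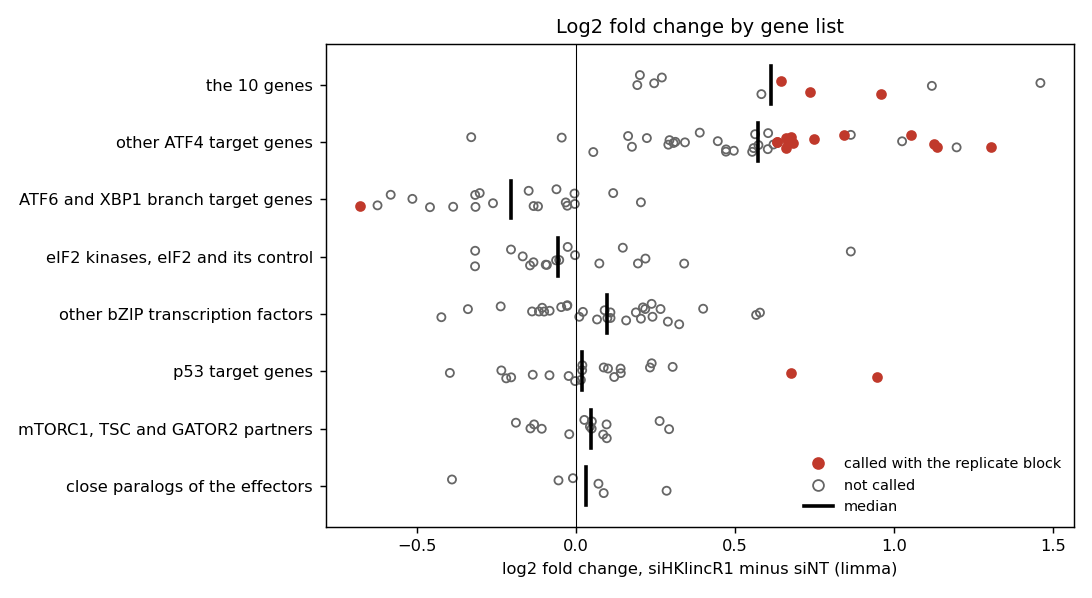
Log2 fold change (si*HKlincR1* minus siNT, limma on log2(RPKM + 0.1)) of every tested gene of the 10 and of the 7 fixed lists, 1 row per list; black bars are medians and filled red points were called with the replicate block. The 10 genes (median 0.61) and the other ATF4 targets (median 0.57) lie to the right of 0, and the ATF6 and XBP1 targets (median -0.21) to the left.

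The knockdown used 1 siRNA, so its seed was searched in the 10 genes, since an siRNA can lower other transcripts through bases 2 to 8 of its guide strand. The strands are shown 5′ to 3′ with the seed, or the bases that pair with it, in capitals.
siHKlincR1_2, strand that matches *HKlincR1*: gaaguauacucGUGUGCUu
siHKlincR1_2, guide strand: aAGCACACgaguauacuuc
The matching heptamer GTGTGCT was found in the 3′ UTR of 14.1% of 10766 tested genes and in that of 1 of the 10, *TRIB3*, which was higher after the knockdown in each pair. The letters were not found in the 3′ UTRs of the other 9. Effects of the seed on the 10 genes, direct or through other transcripts, were not tested.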

How the data were processed

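Total RNA of 3 siNT and 3 si*HKlincR1* cultures of H460 cells was sequenced as strand-specific, paired-end poly(A) libraries. The authors counted reads per Ensembl gene with the Rsubread package (featureCounts and CASAVA 1.8.2 are named in the submitters' processing notes) and deposited RPKM values per gene, which were used as they are. The aligner is not given in the sources used here. Because the RPKM values are unrounded, the reads and the library totals behind them were recovered. Every nonzero value gave a whole number of reads within a relative tolerance of 1e-06.

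A fit with limma 3.58.1 (R 4.3.3), with a mean-variance trend and Benjamini-Hochberg adjustment, was made on log2(RPKM + 0.1) for the 15451 genes whose mean reached 0.5 RPKM. Fold changes on this scale understate those of low genes. Calls needed an adjusted p under 0.05 together with a change of more than 1.5-fold. Single genes were also compared over libraries with an exact permutation test (two-sided, p at least 0.1 for 3 against 3). The authors used edgeR on counts with the same thresholds and reported more genes higher than lower, whereas the unblocked fit called 1 higher and 55 lower. The reason for this difference was not tested.

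The replicate numbers in the sample titles are shared by both groups, and no source used here says that libraries of 1 number were made side by side. Deviations from the group means correlated at 0.142, 0.137 and 0.266 within same-numbered pairs and at -0.209 to 0.113 between other pairs, so the numbers were taken to pair the libraries and the fit with the replicate block is given beside the unblocked one where it changes a call. Tested on simulated data of 15302 genes, of which 200 changed by 1.5 on the log2 scale, the unblocked fit recovered 94% with 8 false calls and the block 93.5% with 9.

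The 10 genes and the lists were chosen with earlier results of these data known. Named from each list were at most 4 genes with the largest absolute log2 fold change and all paralogs, and, as the genes most like the set, the 5 with the highest correlation to its mean. Other genes called in a list were named after their values were seen. Names and positions came from GENCODE v44 on GRCh37 (55538 of 57773 identifiers), and promoters of GRCh38.p14 from RefSeq. The alternatives varied the pseudocount, the minimum RPKM, scaling, trend, fold threshold and block, used voom on the reads, or left out libraries. Leaving out replicate 3 of both groups, and the block with voom, were chosen after seeing the data.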

Additional observations from a re-analysis of the deposited data

How the results depend on the processing

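The log2 fold change of *HKlincR1* kept its direction and stayed past the threshold under every alternative. Of the 10 genes, 0 were called without the block, 3 with it, 4 with the block and voom on reads, and 0 to 4 when libraries were left out, the 4 being reached without replicate 3 of both groups. Leaving out any single library called 0 of the 10. Over 16 alternatives the log2 fold changes of 9 of the 10 stayed above 0, between 0.59 and 1.33 for *DDIT3*, 0.38 and 0.91 for *TRIB3*, 0.50 and 0.98 for *CEBPG*, 0.58 and 1.39 for *SESN2*, 0.26 and 2.08 for *CHAC1*, 0.26 and 0.77 for *ATF3*, 0.079 and 0.53 for *ATF5*, 0.15 and 0.43 for *CEBPB* and 0.091 and 0.25 for *ATF4*. *DDIT4* changed sign when libraries were left out, from -0.048 (without siNT replicate 3) to 0.33 for single libraries, and was at -0.065 without replicate 3 of both groups. The paralogs near 0 also changed sign: *CHAC2* (-0.015 to 0.14 when libraries were left out), *DDIT4L* (-0.26 to 0.060) and *SESN3* (-0.42 to 0.26, with 0.014 at a pseudocount of 1, 0.0051 with voom and 0.048 with the block and voom). Tested genes called lower and higher numbered 55 and 1 in the unblocked fit (1420 and 1088 at an unadjusted p under 0.05). They numbered 125 and 79 with the replicate block, 86 and 3 with voom, 258 and 161 with the block and voom, 34 and 12 with no filter on low RPKM, 16 lower with no trend, 0 higher at a pseudocount of 0.01 and 2 higher with no fold threshold. Leaving out libraries gave 7 to 315 lower and 0 to 205 higher, the highest counts being those without si*HKlincR1* replicate 3, and 259 and 181 without replicate 3 of both groups. Other ATF4 targets called higher numbered 0 in the unblocked fit, 13 with the block, 18 with the block and voom, and 0 to 15 when libraries were left out, with 14 without si*HKlincR1* replicate 3. Added to the limma fit on RPKM, the block changed no call of the 10 genes other than those of *DDIT3*, *TRIB3* and *CEBPG*, and added to voom it also brought *SESN2* past the threshold (adjusted p = 0.00996, against 0.208 with voom alone). *PPP1R15A* (0.0265) and *DNAJB9* (0.0361) passed with the block and voom, and *MANF* (0.0183) without replicate 3 of both groups. The causes of these shifts were not tested. *CHAC1* in siNT replicate 3 rests on 108 reads, and *EPCAM* on at most 8 in any library.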

Other observations

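The genes whose levels followed the mean of the 10 genes most closely over the 6 libraries, among 7632 genes whose mean reached 5 RPKM and that were in none of the fixed lists, were *LMO4*, the pseudogene *MTHFD2P7*, *AKAP10*, *ARFGEF2* and *NDUFS1*. Their Pearson r with that mean was 0.995, 0.994, 0.993, 0.989 and 0.988, a description over 6 libraries that share their groups and their low values in replicate 3. *LMO4*, which encodes a LIM-domain transcription cofactor, had 4.99, 4.84 and 2.41 RPKM with siNT and 7.24, 7.20 and 4.79 RPKM with si*HKlincR1*. *MTHFD2P7* ran from 10.9 RPKM in siNT replicate 3 to 23.2 RPKM in si*HKlincR1* replicate 2, and its parent gene *MTHFD2*, a mitochondrial folate enzyme gene and an ATF4 target, can share reads with it. *AKAP10*, *ARFGEF2* and *NDUFS1* kept the same shape with small differences, their log2 fold changes being 0.11, 0.16 and 0.06. Within the set, *ATF3* (r = 0.997) and *SESN2* (r = 0.994) lay closest to the mean that includes them and *ATF5* (r = 0.239) farthest, over the same 6 libraries.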
